A study of Mus musculus with 2 samples.

Results

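The Igf2r-Airn locus on mouse chromosome 17 is an imprinted cluster of 4 genes, Igf2r, Airn, Slc22a2 and Slc22a3. Its CTCF peaks were taken as every peak of the optimal list with its summit in the window from the first to the last of these genes plus 50 kb on each side, chr17:12368960-12910136 (mm10). That window of 541 kb held 29 of the 65482 optimal peaks. Sites of CTCF binding came from ChIP-seq (immunoprecipitation of chromatin followed by sequencing of its DNA) of kidney from B6NCrl mice at 0 days after birth, with no treatment or genotype named in the labels and sex not collected. The 2 libraries form 1 group and are numbered as biological replicates 1 and 2, but they carry the same biosample and donor identifiers, so the spread between them may be technical. Peak lists measure no expression, so the tissue was taken from the labels and not checked against marker genes. The values come from a mixture of kidney cell types of an inbred strain, so a peak can be assigned neither to a cell type nor to a parental allele.

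Igf2r encodes the cation-independent mannose 6-phosphate receptor, which carries lysosomal enzymes and clears the growth factor IGF2, and most mouse tissues express it from the maternal allele. Airn is a long non-coding RNA read in the opposite direction from the paternal allele, and it starts at the imprint control element inside Igf2r. Slc22a2 and Slc22a3 encode organic cation transporters, and both are imprinted in the placenta. Slc22a2 protein takes up organic cations into proximal tubule cells of the kidney. CTCF is a zinc-finger protein that binds a directional DNA motif and blocks the extrusion of chromatin loops by cohesin, often between motifs that point toward each other.

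The sequences at the Airn and Igf2r starts are shown first, because 1 of these CpG-rich starts had an optimal peak and the other did not. Capitals mark every CpG, the dinucleotide that carries DNA methylation. The Airn sequence is 300 bases around the peak summit, chr17:12741233-12741532, plus strand, from the GRCm38.p6 genome sequence. The Igf2r sequence is the 250 bases before the RefSeq start, chr17:12769707-12769956, minus strand, from the RefSeq promoter table of the same assembly. The stretches thus differ in length and in place relative to the start, so their CpGs are not compared directly. The Igf2r stretch does not reach the weaker summit described below for that start.

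Airn peak centre: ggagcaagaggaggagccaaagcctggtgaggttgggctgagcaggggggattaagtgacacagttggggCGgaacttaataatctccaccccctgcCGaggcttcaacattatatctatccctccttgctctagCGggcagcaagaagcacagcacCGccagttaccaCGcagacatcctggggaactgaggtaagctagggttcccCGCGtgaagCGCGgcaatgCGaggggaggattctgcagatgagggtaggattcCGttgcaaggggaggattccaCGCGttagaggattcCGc
Igf2r before the start: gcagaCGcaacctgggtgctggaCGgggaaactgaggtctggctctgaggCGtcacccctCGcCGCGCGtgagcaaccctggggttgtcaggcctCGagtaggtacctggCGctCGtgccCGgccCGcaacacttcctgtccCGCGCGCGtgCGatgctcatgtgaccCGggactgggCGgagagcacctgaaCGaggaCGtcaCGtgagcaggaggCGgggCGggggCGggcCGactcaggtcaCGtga

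The motif matches under the peaks carry the directions used below. Each is 19 bases, written 5′ to 3′ along the motif, with capitals where the base is the most frequent one of the learned matrix at a position of at least 0.5 bits. The first 8 lie outside soft-masked sequence (the interspersed and simple repeats that the genome file gives in lower case) and are examples of high-signal sites and of sites in or beside the member genes, not a ranking. The last 4 lie in soft-masked sequence.

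12372227, before Plg, reverse: ggaCCACcAGGGGGCGtgt
12416429, Plg intron 17, forward: tggCCACcAGatGGCagca
12532309, between Slc22a3 and Slc22a2, reverse: tccCCACtAGGGGGCGcag
12534967, between Slc22a3 and Slc22a2, forward: ctaCCACaAGGGGGaGaca
12562406, before Slc22a2, forward: agaCCAgcAGGtGGCactg
12714376, Igf2r intron 18, forward: gaggCACcAGaGGGCacca
12810668, Airn intron 1, reverse: ataCCACaAGGGGGCacta
12880392, past Mrgprh, forward: caaCCtCcAGGGGtCGctc
12455343, Slc22a3 intron 5, reverse: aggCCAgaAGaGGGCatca
12461359, Slc22a3 intron 2, forward: aggCCAgaAGaGGGCacct
12629407, past the Slc22a2 end, reverse: aggCCAgaAGaGGGCattg
12772250, before the Igf2r start, reverse: aggCCAgaAGaGGGCatta

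The 29 peaks of the window amounted to 5.36 per 100 kb, beside 2.56 over the 20 chromosomes (1 to 19 and X) and 3.14 over chromosome 17. Tiles of the same length laid over those chromosomes held a median of 11 peaks, with quartiles at 4 and 20 and a highest value of 73, so the window lay above the upper quartile. Gaps between neighbouring summits ran from 712 to 67001 bp, with a median of 11359.5 bp. The rule's edges excluded 1 peak that lay 1391 bp before the window, at signal percentile 82.2, and the first peak inside lay 2555 bp from that edge at 71.0. On the other side the last peak inside lay 23330 bp from the edge at percentile 7.4, and the next peak lay 78158 bp outside at 30.7.

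Signal percentile here is a peak's place among the signal values that the authors' caller gave to the optimal list, with 100 for the highest. The 29 peaks ran from percentile 2.5 to 96.6 with a median of 59.2, and 17 lay in the upper 50% and 2 in the upper 10%. In each library's own list of 300000 peaks, rank 1 is the highest signal, and ranks are given below as replicate 1 and replicate 2.

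**Figure D1:**
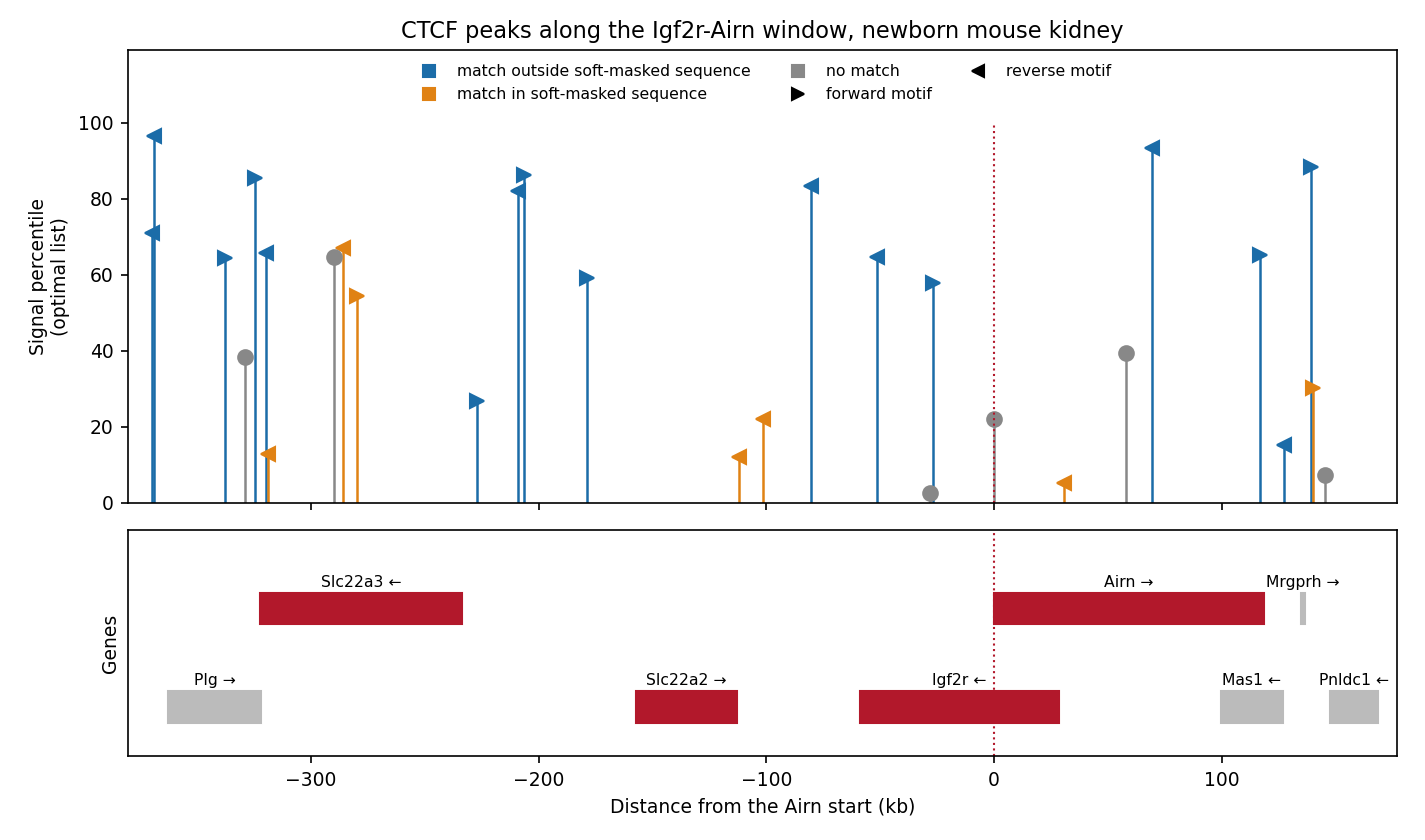
CTCF peaks along the window. The x axis is the distance of each summit from the Airn start in kb, the y axis is the signal percentile in the optimal list, marker direction gives the motif strand and colour the class of match; the lower panel shows the genes with arrows for their strand, the 4 members in red and other named genes in grey. The tall peaks stand away from the dotted Airn start, where the peak has percentile 21.9, and no stem rises inside Slc22a2.

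Of the 4 genes, Airn was the 1 with a summit within 1 kb of an annotated transcription start site (TSS). Over the 20 chromosomes, 39.4% of protein-coding genes and 18.4% of long non-coding genes had such a summit, and 1 of 4 stands near that background. The Airn start lies in intron 2 of the 48-exon Igf2r, 28353 bp inside that gene, and both genes share 28.4 kb. The peak there spans chr17:12741217-12741546 and begins before the Airn 5′ end. Its summit at 12741382 lay in the first Airn exon, 71 bp past that end. Its rank was 52751 in replicate 1, with the summit 68 bp past the start, and 59141 in replicate 2, with the summit 116 bp past it. Both libraries held it within their upper sets, meaning as many of their highest-signal peaks as the optimal list has, and the conservative list held it too.

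The Airn start peak had no motif match. Its best score within 100 bp of the summit was 5.55, below the threshold of 11.15 that 1 in 10000 control positions passed. It had 10 CpGs in the 201 bp around its summit, the most of the 29 peaks, and a GC content of 55.2%. The CpGs lay on 1 side: the 1500 bp before the Airn start held 6 and the 1500 bp after it held 94. The sequence above shows the step, with 14 CpGs in 300 bases, while the RefSeq promoter window of Airn, 250 bases before to 50 after its start, held 3. The median over 32851 such promoter windows was 7.

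**Figure D2:**
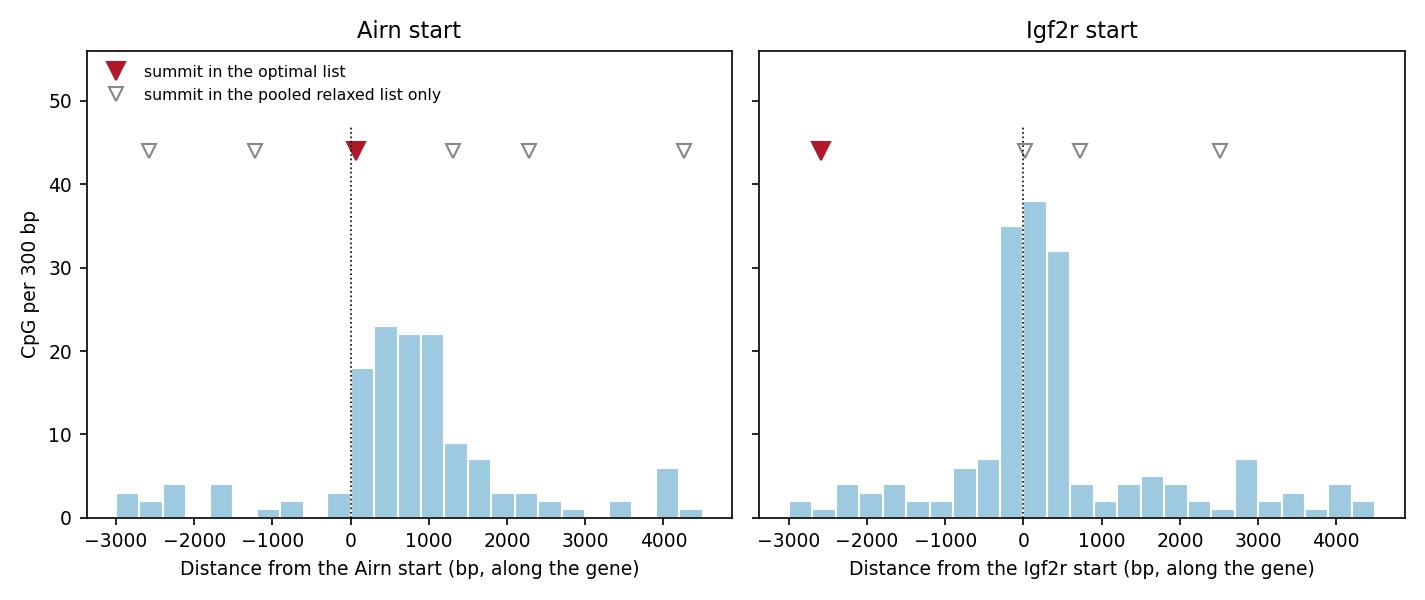
CpGs in 300-bp bins around the Airn and Igf2r starts. The x axis is distance from the start in bp along the direction of the gene and the y axis is the number of CpGs per bin, with filled triangles at summits of the optimal list and open ones at summits of the pooled list alone; the Airn counts rise after the start to a highest bin of 23, and the Igf2r counts are high on both sides of it with a highest bin of 38.

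Igf2r had no optimal peak within 1 kb of its TSSs. The nearest, at 12772250, lay 2586 bp upstream of its 5′ end and inside the first Airn intron. That peak was at percentile 5.2, ranked 67810 in replicate 1 and 130813 in replicate 2, and was absent from the conservative list. At the Igf2r start itself a weaker summit was listed 26 bp inside the gene, at rank 98910 of the pooled list and 90337 of replicate 1, and replicate 2 listed none within 1 kb. The Igf2r start was also rich in CpGs, with 52 in the 1500 bp before it and 80 in the 1500 bp after it. The 300-base RefSeq promoter window of Igf2r held 34 CpGs, and its best motif score was 2.55.

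Within the Igf2r gene, chr17:12682406-12769664 on the minus strand, 4 peaks lay. The peak at 12689738 in intron 42 had percentile 64.7, with ranks 20781 and 24777, and a reverse match. The peak at 12714376 in intron 18 had percentile 57.8, with ranks 25534 and 35651, and a forward match. A weaker peak at 12713261 in intron 19 had percentile 2.5 and rank 68736 in replicate 1, and replicate 2 listed no peak over it. The fourth was the Airn start peak. Both libraries thus listed 3 of the 4.

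Airn, chr17:12741311-12860136 on the plus strand, held 5 peaks. The highest, at 12810668 in intron 1, lay at percentile 93.3, with ranks 4099 and 4932 and a reverse match. At 12858313, 1823 bp before the 3′ end of Airn and inside an intron of Mas1 (a G protein-coupled receptor gene), a peak at percentile 65.3 ranked 22689 and 23436 and had a forward match. The peak at 12799442, percentile 39.3, had rank 33490 in replicate 1 but 155291 in replicate 2, no match and no place in the conservative list. The libraries differed most in rank at this peak among the 28 that both listed. The remaining pair were the start peak and the peak at 12772250 described with Igf2r.

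Slc22a2, chr17:12584132-12628488 on the plus strand, held 0 peaks over its 44.4 kb. It lay inside the longest gap of the window, the 67001 bp between the peaks at 12562406 and 12629407. The first of these was 21726 bp upstream of the Slc22a2 start, at percentile 59.2 with ranks 25970 and 31488 and a forward match. The second was 919 bp past the 3′ end, at percentile 12.0 with ranks 64245 and 60424 and a reverse match in soft-masked sequence. At the Slc22a2 start the pooled list held a summit only at rank 294789 and replicate 1 at rank 226816, and replicate 2 listed none within 1 kb. The promoter window of Slc22a2 held 8 CpGs and no motif match, with a best score of 2.94.

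Slc22a3, chr17:12418960-12507704 on the minus strand, held 5 peaks, none near its start. No list, the relaxed ones included, held a summit within 1 kb of its 5′ end, and the nearest optimal peak lay 6479 bp upstream, at 12514183, with percentile 26.7 and ranks 45165 and 63935. The promoter window held 5 CpGs, with a best motif score of 2.6. At the other end of the gene, 2411 bp inside the 3′ end, a peak at 12421371 in the untranslated part of exon 11 had percentile 65.6 and ranks 21675 and 23696. In intron 5 a peak at 12451436 had percentile 64.6 and ranks 21411 and 27038 without a motif match, and another at 12455343 had percentile 67.0 and ranks 22670 and 20847 with a reverse match. The peak at 12461359 in intron 2 had percentile 54.3 with ranks 32032 and 27525. The peak at 12422264 in intron 10 had percentile 12.9 with ranks 71877 and 54715, so it fell outside the upper set of replicate 1.

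Most of the few peaks with a percentile over 80 lay between or beside the 4 genes, but this was not tested against gene length. Of the 29 peaks, 13 lay in at least 1 of the 4 genes (44.8%, 28.4 to 62.5). Slc22a3, Slc22a2, Igf2r and Airn span 88.7, 44.4, 87.3 and 118.8 kb of the 541 kb, with 28.4 kb shared by Igf2r and Airn. The 13 are thus not set apart from the genes' share of the window. A total of 7 of the 29 had a percentile over 80 (24.1%, 12.2 to 42.1), an interval that holds the share such a cut leaves by definition. All 7 had a match outside soft-masked sequence, but the share of such matches among all optimal peaks over that percentile is not given. Only 1 of the 7, the Airn intron 1 peak, lay in a member gene. The highest of the window, at 12372227, lay 6381 bp before Plg, the plasminogen gene, with percentile 96.6 and ranks 3911 and 1543. Its neighbour at 12371515 had percentile 71.0 and ranks 19946 and 18439, and both matches were reverse.

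Between Slc22a3 and Slc22a2 the peaks at 12532309 and 12534967 stood 2658 bp apart with matches pointing away from each other. The first had percentile 82.0 and ranks 12213 and 11430, and the second had percentile 86.2 and ranks 6693 and 10886. Past Slc22a2 a peak at 12639751 had percentile 21.9 and ranks 55005 and 50844, with a reverse match in soft-masked sequence.

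The outer parts of the window held further peaks. Plg contained peaks at 12403672 (percentile 64.5), 12412422 (percentile 38.3, no match) and 12416429, the last at percentile 85.3 with ranks 8294 and 9772. Mas1 was the other gene of the window with a peak within 1 kb of its start: the summit at 12868899 lay 756 bp upstream of it, at percentile 15.1 with ranks 58370 and 59189. Past Mrgprh, a gene of the same receptor family, a peak at 12880392 had percentile 88.3 with ranks 6103 and 9337 and a forward match. The peaks at 12881400 and 12886806 followed at percentiles 30.2 and 7.4, the second absent from the conservative list.

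**Figure D3:**
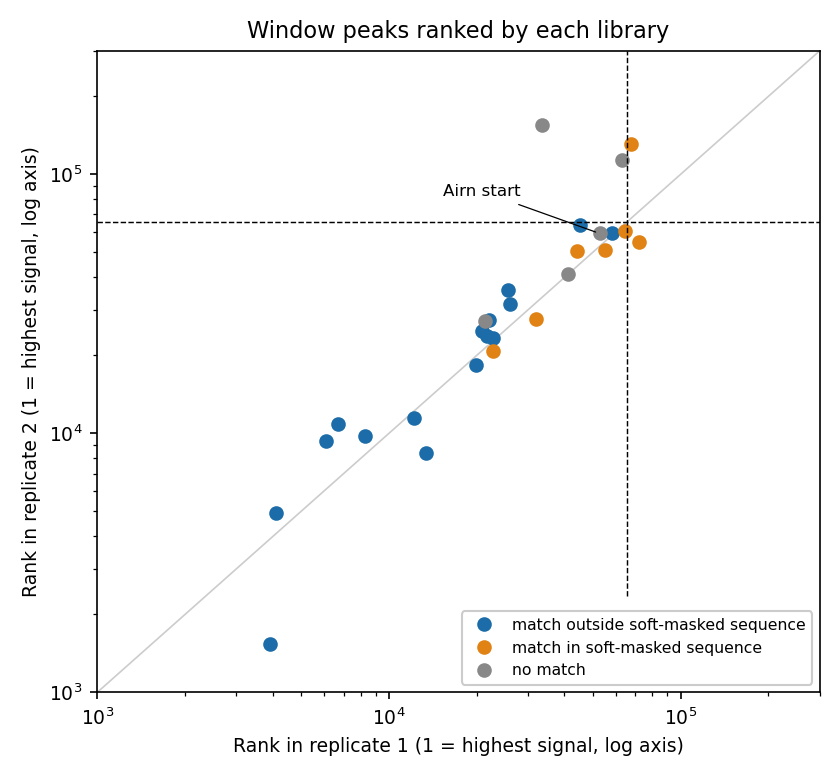
Rank of the 28 peaks of the window that both libraries listed, in replicate 1 (x axis) and replicate 2 (y axis). Both axes are on log scales, with rank 1 the highest signal, and the peak at 12713261, which replicate 2 did not list, is not drawn. Colour gives the class of motif match, the dashed lines end the upper sets, the grey line marks equal ranks, and the peaks at 12799442, 12886806 and 12772250 stand above it with lower places in replicate 2.

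The optimal list was already filtered for reproducibility, which favours peaks with similar places in the 2 libraries. The shares below describe the members after that filter and are no separate evidence of agreement. Replicate 1 listed 29 of the 29 peaks and replicate 2 listed 28, and 24 (82.8%, 95% Wilson interval 65.5 to 92.4) lay in the upper set of both, beside 78.6% of all optimal peaks on the 20 chromosomes. When the overlap had to cover at least 50% of both intervals, 17 of the 29 were matched in both. Of the 29, 25 (86.2%, 69.4 to 94.5) were in the conservative list, beside 84.2%. Both shares stand close to the background, which passed the same filter. The 17 peaks of the upper 50% were all in the upper set of both libraries. The rank was nearer the top in replicate 1 for 19 peaks and in replicate 2 for 10, with the peak that replicate 2 did not list counted among the 19.

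A motif match stood under 23 of the 29 peaks (79.3%, 61.6 to 90.2), beside 72.9% of the optimal peaks on the odd-numbered chromosomes, none of which took part in learning the matrix. Of the 23 matches 10 were forward, and 5 held a CpG. The interval covers counting error only, and neighbouring peaks are not independent, so the share is not set apart from the background. A total of 7 summits lay in soft-masked sequence (24.1%, 12.2 to 42.1), beside 22.0%. Summits within 1 kb of any annotated TSS numbered 2 (6.9%, 1.91 to 22.0), beside 13110 of 65470 optimal peaks (20%), and the interval reaches that share.

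**Figure D4:**
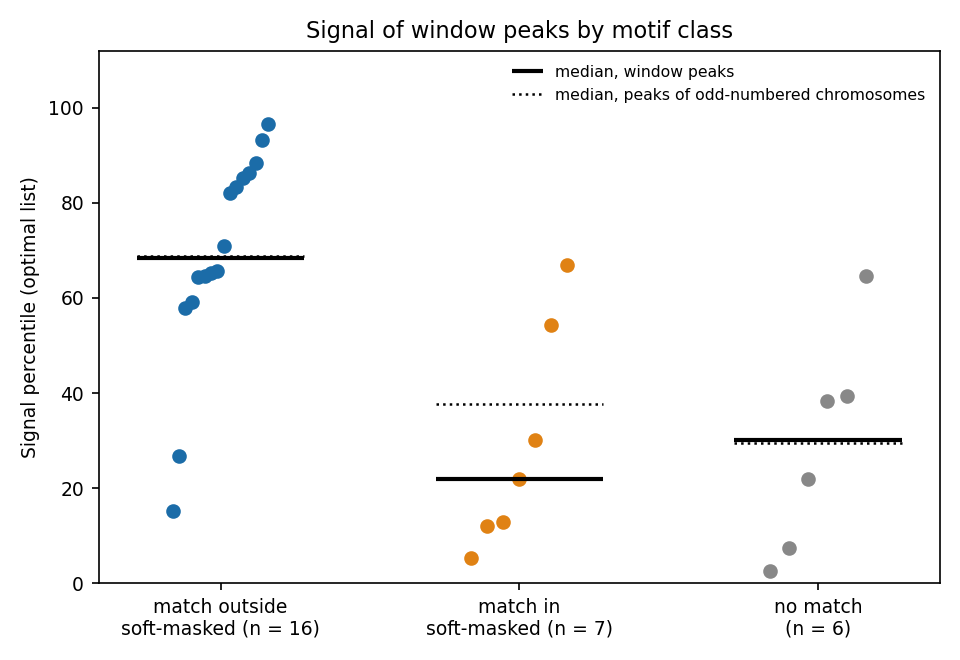
Signal percentile of the window's peaks by class of motif match. The y axis is the percentile in the optimal list, each point is 1 peak, dotted lines are medians over the odd-numbered chromosomes, and solid lines are the window medians, of 68.3 for matches outside soft-masked sequence, 21.9 for soft-masked matches and 30.1 for peaks with no match.

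Signal differed among the members by the kind of match. The 16 peaks with a match outside soft-masked sequence ran from percentile 15.1 to 96.6 with a median of 68.3, and on the odd-numbered chromosomes the median of that class was 68.9. The 7 with a soft-masked match ran from 5.2 to 67.0 with a median of 21.9, beside 37.6. The 6 without a match ran from 2.5 to 64.6 with a median of 30.1, beside 29.4. Best scores in this class ran from 1.8 to 10.88, so not all were far below the threshold. Peak width divided the members more sharply: the 12 peaks of 330 bp, the most frequent width of the list, ran from percentile 2.5 to 39.3, and the other 17 from 54.3 to 96.6. On the odd-numbered chromosomes 53.3% of peaks had that width, with a median percentile of 26.7, beside 77.0 for the others. Width and signal come from the same caller, so their relation is a description of its output.

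The soft-masked matches resembled each other, as the last 4 sequences above show. A core of 13 bases, ccagaagagggca, stood in 6 of the 7. It was picked after these matches had been seen and was searched on both strands within 100 bp of each summit, where it forms part of the 19-base match. It stood in 20.7% of the window's peaks, in 8.34% of all optimal peaks, and in 0.629% of control windows 2000 bp away. Of all optimal peaks with the core, 95.3% had a soft-masked summit. Of the 6 in the window, 3 lay in Slc22a3, at 12422264, 12455343 and 12461359, and the others at 12629407, 12772250 and 12881400.

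The directions of the matches were read in order along the chromosome. Among the 16 matches of peaks in the upper 50%, 8 were forward and 8 reverse, and their neighbouring pairs comprised 4 convergent (pointing toward each other), 5 divergent and 6 tandem. By the matches of these upper peaks alone, the start of each of the 4 members lay between a convergent pair, Slc22a2 included. Slc22a3 started between the matches at 12461359 and 12532309, which are 71.0 kb apart. Igf2r and Airn both started between the matches at 12714376 and 12810668, 96.3 kb apart. On the odd-numbered chromosomes 30.0% of protein-coding 5′ ends lay between convergent matches of upper-50% peaks. With all 23 matches of the window, neighbouring pairs comprised 5 convergent, 6 divergent and 11 tandem. Slc22a3 then started between a tandem pair, at 12461359 and 12514183, so its place depends on the signal cut. Igf2r and Airn still started between a convergent pair, but the second match was then at 12772250, 57.9 kb from the first. That peak lay at percentile 5.2 and was absent from the conservative list. For Slc22a2 the pair was also convergent, at 12562406 and 12629407, 67.0 kb apart. The arrangement of the 4 starts was noticed in these data, 2 of the 4 share a pair, and peak lists do not show which sites are in contact.

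**Figure D5:**
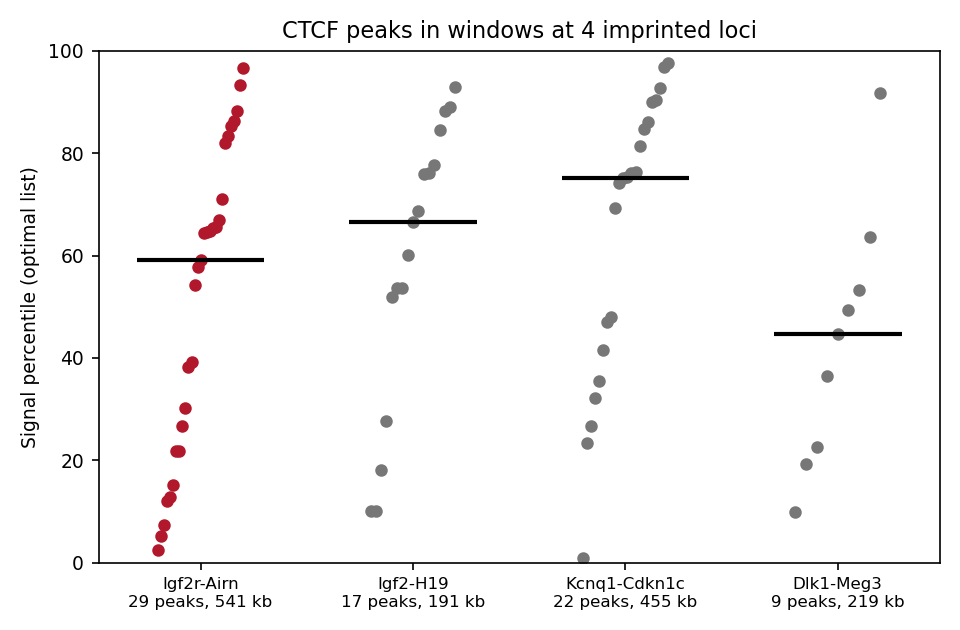
Peaks of the Igf2r-Airn window beside 3 other imprinted windows chosen by the same rule of gene span plus 50 kb. Each point is 1 peak, the y axis is its signal percentile in the optimal list, and the black lines are medians, which are 59.2 for Igf2r-Airn, 66.5 for Igf2-H19, 75.2 for Kcnq1-Cdkn1c and 44.7 for Dlk1-Meg3.

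The windows of 3 other imprinted loci were set beside this one without a test. The Igf2-H19 window had 17 peaks in 191 kb (8.89 per 100 kb, motif match 58.8%), Kcnq1-Cdkn1c had 22 in 455 kb (4.84 per 100 kb, 86.4%), and Dlk1-Meg3 had 9 in 219 kb (4.11 per 100 kb, 66.7%). With 5.36 per 100 kb the Igf2r-Airn window stood between them in density, median signal and share of matches.

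Genes related to the members by function were counted by promoter peak, a summit within 1 kb of a TSS. The organic cation transporter genes Slc22a4, Slc22a5, Slc47a1 and Slc47a2 each had one, while the members Slc22a2 and Slc22a3 had none. Slc47a1 and Slc47a2, which encode exporters of organic cations, had summits 817 and 385 bp from a TSS, at percentiles 3.4 and 72.5. Of genes of the IGF and mannose 6-phosphate pathways, 6 of 8 had one, among them Igf2, the ligand cleared by the receptor, at percentile 18.2, and M6pr, the smaller mannose 6-phosphate receptor, at 82.8. Insr, the insulin receptor gene, and Gnptg, a subunit of the enzyme that makes the mannose 6-phosphate tag, had none. Their nearest summits lay 1061 and 3197 bp from a TSS. Of genes for imprint control and Airn silencing, 7 of 12 had one, including the DNA methyltransferase genes Dnmt1, Dnmt3a and Dnmt3b. Zfp57 and Ehmt2 had none, with the nearest summits 3970 and 1296 bp from a TSS. Of other imprinted non-coding RNA genes, Meg3, Nespas and Peg13 had one, and H19, Kcnq1ot1 and Snhg14 did not. For H19 the nearest summit lay 1124 bp from a TSS, just past the cut, beside 142540 bp for Kcnq1ot1 and 32164 bp for Snhg14. These lists are small, and none was tested against the 39.4% and 18.4% of all genes.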

How the data were processed

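The 5 deposited lists are narrowPeak files on mm10: a relaxed list per library (2 in all), a relaxed list of the pooled libraries, and 2 lists filtered for reproducibility, the optimal and the stricter conservative one, per the file headers. The aligner, the caller and their settings were not given in the sources used here. The authors' signal value served for ranking peaks inside 1 list at a time. The deposited −log10 q-value was read and ranked nothing. The deposited summit offset placed each summit. No list holds read counts, so depth is unknown.

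Peaks were placed against GENCODE M21 genes and the GRCm38.p6 sequence, with Python 3.11.15, numpy 2.4.6 and pandas 2.3.3. A library's peak was matched by an overlap of at least 1 bp. A 19-base CTCF matrix was learned from peaks on even-numbered chromosomes and X outside soft-masked sequence, which held out chromosome 17. It was scored within 100 bp of each summit. The scan was tested on simulated random sequence that held motifs drawn from the matrix that learning started from. That test does not measure recovery in genomic sequence. All 4 members matched the RefSeq promoter table. Members and lists were chosen with earlier results of these data known. The text names the 4 members, genes starting in the window, fixed related genes and peaks. Results for 1 gene, and those that rest on it, are not reported here. The comparison by soft-masked match, by width and of pairs of motif directions was chosen after seeing the data. With 1 group there was no test.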

Additional observations from a re-analysis of the deposited data

How the results depend on the processing

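A count or density was taken as moved beyond 1.5 times its value, a median or distance beyond 1 SD of the 2 libraries, and the motif share outside its Wilson interval: 41 alternative values stayed within these limits and 11 moved. Within them, peaks in the upper set of both libraries fell from 24 to 17 when a reciprocal overlap of 50% was required. With the upper 50% of optimal peaks by signal, the window kept 17 peaks (3.14 per 100 kb), their median percentile was 67.0, 94.1% had a motif match, 0 of the 4 genes kept a promoter peak, and the nearest peak to the Airn start lay 26935 bp away. A cut on signal cannot raise the count or density or lower the median percentile, so the direction of those changes was fixed in advance. With as many pooled peaks as the optimal list has, the median percentile was 64.5. With each library left out in turn it ran from 54.9 to 60.7, and the distance from the Airn start to the nearest peak from 68 to 116 bp, the higher value being that of replicate 2 alone. The share with a motif match was 37.9% at a threshold passed by 1 in 100000 control positions and 96.6% at 1 in 1000. The SD used as a limit comes from the same 2 libraries that were left out in turn. The tally of values that stayed or moved is therefore a description. No paired analysis was possible because there is 1 group of 2 libraries. Unknown depth and the shared donor limit every rank: a gene start without a peak is below these lists' reach, which does not show that CTCF is absent there.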

Other observations

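Beyond the optimal list, the window held 116 peaks in the pooled list, 122 in replicate 1 and 101 in replicate 2. The conservative list held 26 there, including 1 that the optimal list lacked, with its summit at 12793824 inside Airn and percentile 4.6 within the conservative list.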
